A study of Rattus norvegicus with 6 samples.

Results

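Axon guidance ligands and receptors were taken from the table of 32883 gene rows by their symbols, as the semaphorins, plexins, neuropilins, ephrins, Eph receptors, netrins, netrin-Gs, Dcc, Unc5 receptors, Slits and Robos. Of 70 rows with such a symbol, 64 averaged 10 or more normalised reads over the 6 libraries and are the members described here, in 12 families. The other 6 were Epha1, Robo4, Robo3, Sema3g, Ntn5 and Efna1. Efna1 lay just outside that limit with a mean of 6.89 and Efna4 just inside it with 13.4. Efna4 was also the only member with a group mean under 10 (9.54 after stimulation).

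The samples were primary hippocampal neuron cultures from newborn Wistar rat pups (postnatal day 0), whose RNA also held abundant astrocyte transcripts. On day 13 to 15 in vitro, 3 cultures were given a chemical stimulus that induces long-term potentiation of synapses (cLTP), and 3 were given the same amount of the solvent DMSO. The stimulus was a mixture of forskolin at 50 µM, which activates adenylyl cyclases, rolipram at 50 nM, which blocks phosphodiesterases of the Pde4 family, and picrotoxin at 200 µM, which blocks GABA-A receptors. No gene was altered in either group, and how long after the stimulus the cells were harvested is not stated in the labels. Culture numbers are those in the library titles. The labels do not state that same-numbered cultures of DMSO and cLTP belong together. The 6 activity-regulated genes Arc, Egr1, Fos, Junb, Npas4 and Nr4a1, used as a check of the stimulus, all rose (4 of the 6 also with the culture number as a block). Values are read counts of polyadenylated RNA divided by the size factor of each library, and differences are on the log2(value + 1) scale.

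Guidance molecules steer growing axons by attraction and repulsion, and many stay on in mature neurons, where they act on dendritic spines and synapses. Semaphorins bind plexins, and the secreted ones mostly do so with a neuropilin as co-receptor. Ephrin-As are held to the membrane by a lipid anchor and ephrin-Bs cross it; both bind Eph receptor tyrosine kinases on neighbouring cells, and signals can pass into either cell. Netrins attract through Dcc and repel through Unc5 receptors, and Slits repel through Robo receptors.

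Within the ephrin-B system, 2 of 3 ligand genes rose and 2 of 5 receptor genes fell after cLTP. Efnb2 and Efnb1 were higher in every stimulated culture than in any control, and the EphB receptor genes Ephb3 and Ephb4 were lower in every stimulated culture than in any control. Outside that system the neuropilin gene Nrp2 and the receptor gene Epha2 rose, and the semaphorin genes Sema4b and Sema4c fell. These 8 were the members past an adjusted p of 0.05 in limma, 4 higher and 4 lower. They were 12.5% of the members. Of all 17315 tested genes 9.02% were called (5.71% higher and 3.31% lower), and of those with a mean of at least 10 it was 10.7% (6.68% higher and 4.02% lower), so the share of members called was near the background.

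The promoters of 4 of these genes are shown because the 2 ephrin-B genes and Epha2 had the largest increases among the members and Ephb3 the largest decrease. Each runs 5′ to 3′ on the gene's strand from 250 bases before to 50 bases after the RefSeq start (build GRCr8), with capitals for the cyclic AMP response element TGACGTCA and its shorter form TGACG, searched on both strands.
Efnb2 (chr16:87484965-87485264, plus strand): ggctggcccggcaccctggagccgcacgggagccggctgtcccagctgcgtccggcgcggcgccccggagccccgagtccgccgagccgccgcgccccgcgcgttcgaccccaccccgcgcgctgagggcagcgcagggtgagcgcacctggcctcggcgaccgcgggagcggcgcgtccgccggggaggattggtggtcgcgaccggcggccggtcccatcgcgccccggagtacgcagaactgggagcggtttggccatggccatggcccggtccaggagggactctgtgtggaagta
Efnb1 (chrX:68297279-68297578, plus strand): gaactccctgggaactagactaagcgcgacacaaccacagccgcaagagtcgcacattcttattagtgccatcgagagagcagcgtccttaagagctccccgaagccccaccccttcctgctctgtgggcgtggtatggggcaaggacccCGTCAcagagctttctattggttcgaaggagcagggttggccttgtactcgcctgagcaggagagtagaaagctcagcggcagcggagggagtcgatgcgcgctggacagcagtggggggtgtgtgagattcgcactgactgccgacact
Ephb3 (chr11:93363726-93364025, minus strand): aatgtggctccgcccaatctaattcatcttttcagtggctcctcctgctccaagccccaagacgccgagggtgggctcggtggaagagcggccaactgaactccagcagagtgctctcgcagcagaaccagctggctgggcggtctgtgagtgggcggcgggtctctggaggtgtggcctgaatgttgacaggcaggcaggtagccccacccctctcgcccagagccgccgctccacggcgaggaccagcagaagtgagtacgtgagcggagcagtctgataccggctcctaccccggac
Epha2 (chr5:158888379-158888678, plus strand): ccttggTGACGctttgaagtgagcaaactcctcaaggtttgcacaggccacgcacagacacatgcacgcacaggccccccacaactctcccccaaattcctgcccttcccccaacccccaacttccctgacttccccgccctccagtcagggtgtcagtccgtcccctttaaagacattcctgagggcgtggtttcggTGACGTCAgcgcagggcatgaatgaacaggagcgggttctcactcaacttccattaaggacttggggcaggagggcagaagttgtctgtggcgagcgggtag

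Of the 64 members, 49 had a promoter in the RefSeq table. Shares of the members were counted per gene and those of all promoters per promoter. The full element TGACGTCA was present in 1 of the 49 (2.04%), against 1.83% of all 33469 promoters, and that 1 was Epha2, where it starts 52 bases before the RefSeq start. Epha2 also holds a separate TGACG further upstream. TGACG, which is contained in the full element, was found in 9 of the 49 (18.4%) and in 21.2% of all promoters; among the 8 called members these were Efnb1 and Epha2, and in Efnb1 it lies on the opposite strand. The AP-1 motif TGANTCA was found in 1 member, Epha10 (2.04%), against 7.33% of all promoters.

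**Figure D1:**
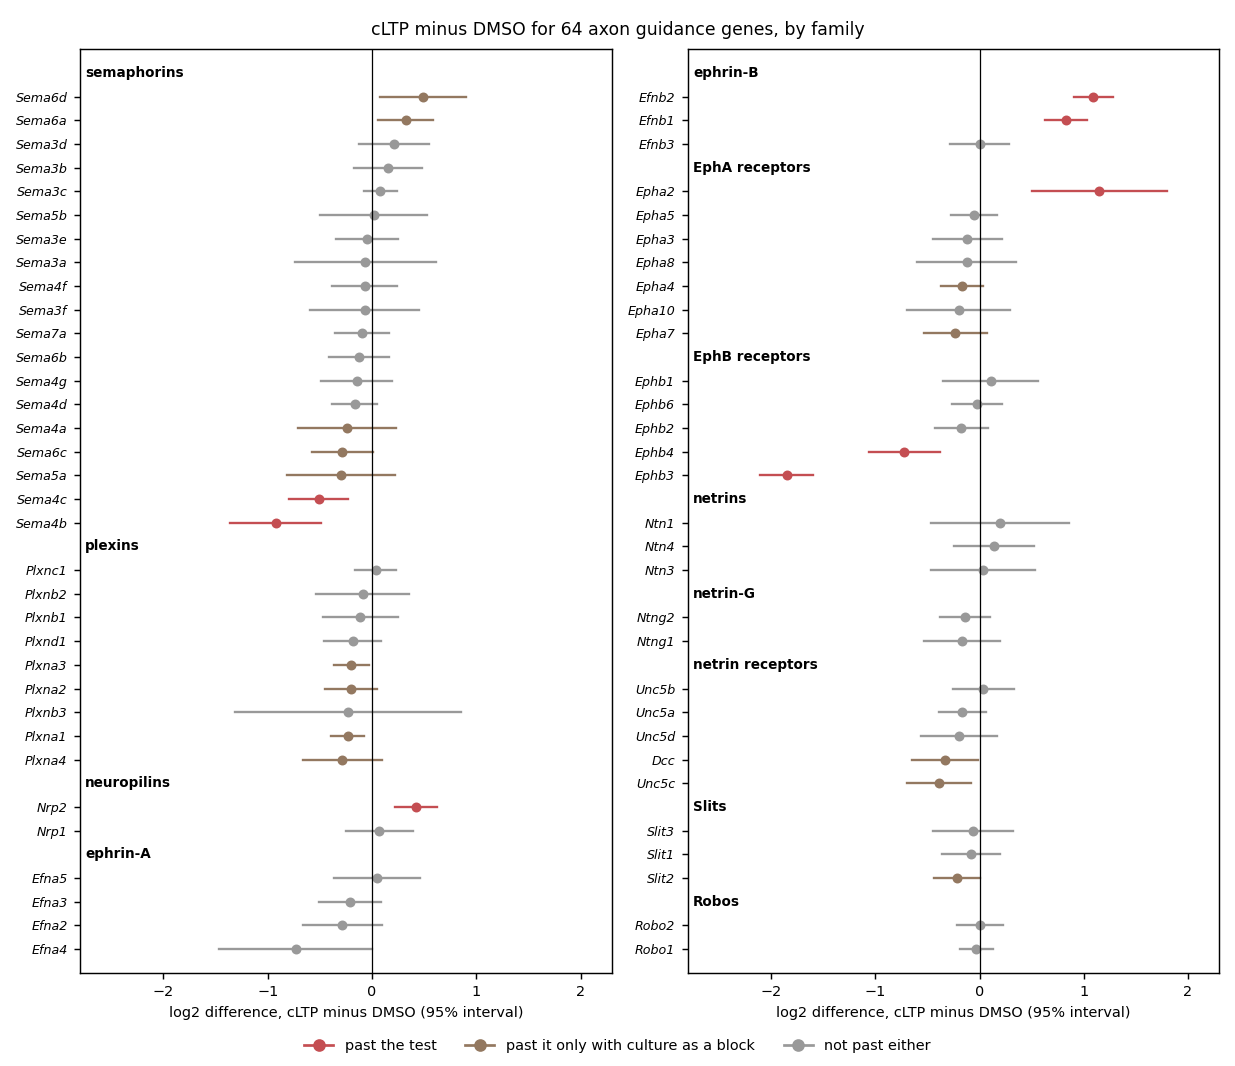
The log2 difference, cLTP minus DMSO, with its 95% interval from the fit without a block, for the 64 members by family; each point is 1 gene, estimated from 3 libraries per group. Ephb3 lies farthest to the left at -1.85, and the points of Epha2, Efnb2 and Efnb1 lie farthest to the right.

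Efnb2 (ENSRNOG00000014648) encodes ephrin-B2, a transmembrane ligand of EphB receptors and of Epha4. It was at 559, 625 and 599 in DMSO cultures 1, 2 and 3 and at 1226, 1363 and 1217 in the cLTP cultures. The groups lay far apart, and the lowest stimulated value was well above the highest control. The mean went from 594 ± 33.1 to 1269 ± 81.7 (SD, n = 3), a log2 difference of 1.09 (95% interval 0.91 to 1.28, limma adjusted p = 5.13e-05).

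Efnb1 (ENSRNOG00000006877) encodes ephrin-B1, a transmembrane ligand of EphB receptors. It was at 295, 295 and 296 in the DMSO cultures, and its control SD of 0.834 was the smallest among the members relative to the mean. In the cLTP cultures it was at 532, 484 and 564, all above the controls. The rise was 1.78-fold (log2 0.83, 95% interval 0.63 to 1.03, limma adjusted p = 0.000416). Efnb3, the remaining ephrin-B gene, was at 3001, 2640 and 3247 in DMSO and 3008, 2504 and 3427 after cLTP, and these ranges overlapped. The estimate for Efnb3 was 0.00 on the log2 scale (95% interval -0.28 to 0.28, limma adjusted p = 0.997), and it turned negative when libraries were scaled to equal totals or quantile-normalised.

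Ephb3 (ENSRNOG00000031801) encodes a receptor tyrosine kinase for ephrin-Bs. It was at 251, 246 and 233 in the DMSO cultures and at 71.0, 62.2 and 67.1 in the cLTP cultures. All stimulated values were under a narrow band of controls. The level fell to 0.277-fold of control (log2 -1.85, 95% interval -2.11 to -1.59, limma adjusted p = 1.74e-05). Within culture numbers 1, 2 and 3 the log2 differences were -1.81, -1.97 and -1.78, so the fall was of like size in each.

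Ephb4 (ENSRNOG00000045952), a receptor that prefers ephrin-B2 and is best known from veins, was at 108, 105 and 84.7 in DMSO and 58.6, 57.0 and 63.1 after cLTP. The groups did not overlap, although DMSO 3 lay closer to the stimulated cultures than the other controls did. The fall to 0.606-fold (log2 -0.72, 95% interval -1.06 to -0.38, limma adjusted p = 0.0173) lost its call without DMSO 1 (adjusted p = 0.0849), DMSO 2 (0.0796), cLTP 1 (0.0681) or cLTP 2 (0.0599). The endothelial marker genes Cdh5, Cldn5 and Emcn were listed at 0 to 2.07 in all 6 libraries, Tek at 0.878 to 4.07 and Flt1 at 5.09 to 13.5. The summed level of the 5 endothelial markers found was 11.8 to 14.9 in DMSO and 12.2 to 16.9 after cLTP.

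The other EphB genes did not pass the test. Ephb1 was at 841, 865 and 575 in DMSO and at 891, 943 and 621 after cLTP, and in both groups culture 3 was the lowest. Ephb2, a receptor that associates with NMDA receptors, was at 376 ± 49.3 and 331 ± 22.6 (log2 -0.18, 95% interval -0.43 to 0.08, limma adjusted p = 0.433). Ephb6, which lacks kinase activity, was at 540 ± 69.3 and 529 ± 33.7.

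**Figure D2:**
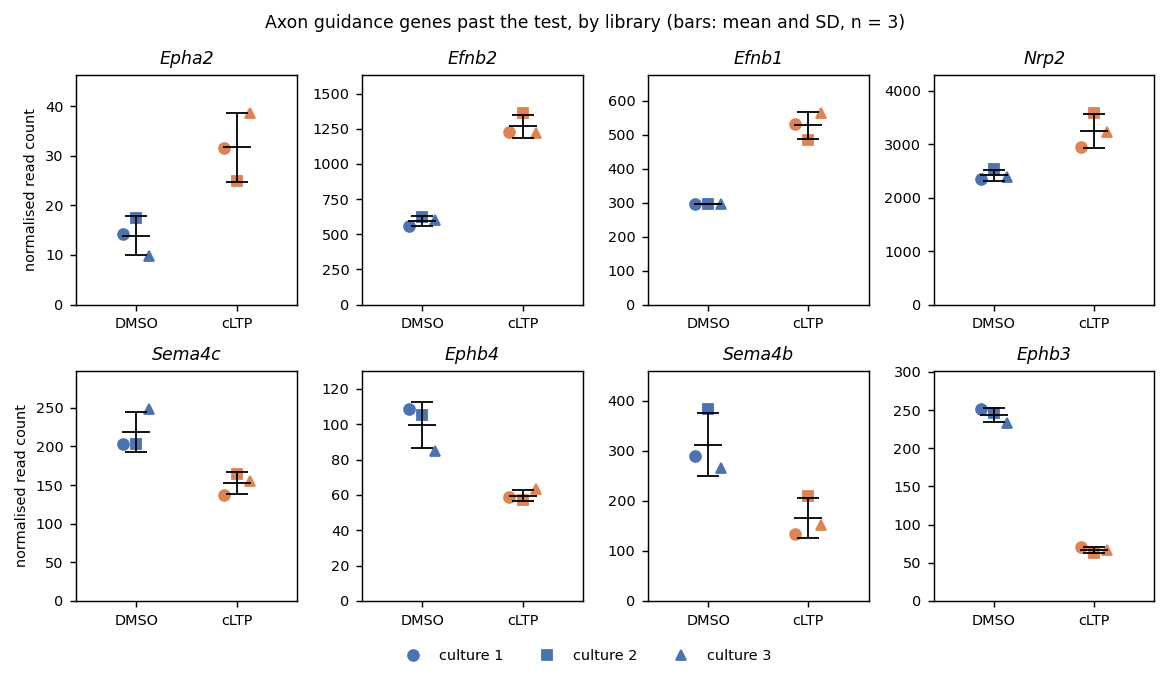
Normalised read counts of the 8 members past the test in each library, in order of their log2 difference; points are libraries with a shape for each culture number, and bars give the mean and SD of 3 libraries. In none of the 8 genes, which were picked by the test, do the groups overlap. Of all genes with a mean of at least 10, 31.1% do not overlap. The widest gaps relative to the spread are those of Ephb3, Efnb2 and Efnb1.

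Among EphA receptors and their ligands, Epha2 alone passed the test without a block. Epha2 (ENSRNOG00000009222), a receptor of ephrin-As first known from epithelia, was measured at low counts, with 14.3, 17.6 and 9.85 in DMSO and 31.6, 24.9 and 38.7 after cLTP. The stimulated values were all above the controls, but only 10 to 38 reads lay behind each value. The rise was 2.22-fold (log2 1.15, 95% interval 0.50 to 1.79, limma adjusted p = 0.0383). It lost its call without any 1 library except DMSO 2 (adjusted p = 0.0533 to 0.129), without culture 3 of both groups (0.154, log2 0.79) and in DESeq2 (0.0523).

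Epha4, which binds both kinds of ephrin and acts on dendritic spines, had the highest mean count of the EphA genes. It was at 3150, 2931 and 3360 in DMSO and 2992, 2556 and 2859 after cLTP, so that cLTP 1 lay above DMSO 2. Its log2 difference was -0.17 (limma adjusted p = 0.334). When the culture number was a block it was called lower (adjusted p = 0.0163), as was Epha7 at 477 ± 73.4 and 404 ± 50.5 (0.371 without and 0.0223 with the block). Epha3, Epha5, Epha8 and Epha10 passed neither fit, with log2 differences of -0.12, -0.05, -0.12 and -0.20.

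None of the 4 ephrin-A members passed in limma, edgeR or DESeq2, and 0 had an unadjusted p under 0.05 in limma. Efna4 had the lowest p of them. It was at 15.2, 24.6 and 11.8 in DMSO and 10.1, 8.29 and 10.2 after cLTP, which do not overlap (log2 -0.73, 95% interval -1.47 to 0.00, limma adjusted p = 0.238). Efna2 likewise did not overlap, with 51.8 to 57.1 in DMSO and 39.4 to 48.8 after cLTP (adjusted p = 0.387). Efna3, the ligand that astrocytes present to Epha4 on hippocampal spines in mice, was at 239 ± 25.9 and 207 ± 29.4 (0.427).

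Of 19 semaphorin genes 2 passed, both lower. Sema4b (ENSRNOG00000025167), a transmembrane semaphorin found at synapses, was at 289, 383 and 265 in DMSO and at 133, 209 and 153 after cLTP. All stimulated values were below all controls, and culture 2 was the highest in both groups. The fall was to 0.527-fold (log2 -0.92, 95% interval -1.36 to -0.49, limma adjusted p = 0.019). The call was lost without DMSO 1 (adjusted p = 0.0541), DMSO 2 (0.0621), cLTP 1 (0.0768), cLTP 3 (0.055) or culture 3 of both groups (0.0507), and the block fit gave 8.42e-07.

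Sema4c (ENSRNOG00000016254), a transmembrane ligand of Plxnb2, was at 204, 204 and 248 in DMSO and at 138, 165 and 156 after cLTP. Here too the groups were apart. The fall to 0.701-fold (log2 -0.51, 95% interval -0.80 to -0.23, limma adjusted p = 0.0355) did not pass without any 1 of the 6 libraries (adjusted p = 0.056 to 0.138) or without culture 3 (0.0698), and passed with the block (0.00121).

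The semaphorin with the highest mean count was Sema6d, a transmembrane ligand of Plxna1. It was at 2572, 3062 and 2105 in DMSO and 3431, 4542 and 2959 after cLTP. The value of cLTP 3 lay below that of DMSO 2, so the groups overlapped, while each cLTP culture was above the control of its own number by 0.42, 0.57 and 0.49 on the log2 scale. Sema6d did not pass without the block (limma adjusted p = 0.155) and was higher with it (adjusted p = 4.57e-07). Sema6a, a ligand of Plxna2 and Plxna4, was at 1115, 1176 and 960 in DMSO and at 1229, 1584 and 1268 after cLTP. Its groups did not overlap, and its adjusted p was 0.144 without and 0.000646 with the block.

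Sema5a, Sema4a and Sema6c were called lower with the block. Sema5a was at 1338, 1375 and 2361 in DMSO and 1199, 1194 and 1634 after cLTP, and culture 3 stood far above the others in both groups. Its adjusted p went from 0.534 to 0.00313, that of Sema4a from 0.593 to 0.0438 and that of Sema6c from 0.248 to 0.0476. The secreted semaphorins Sema3a to Sema3f passed neither fit, with log2 differences from -0.07 to 0.21. Sema3a, the classical repellent of sensory and cortical axons, was at 33.3, 26.3 and 54.2 in DMSO and 25.9, 42.5 and 37.6 after cLTP, and Sema3c at 1496 ± 19.5 and 1582 ± 75.1.

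Of the receptors for semaphorins, Nrp2 rose. Nrp2 (ENSRNOG00000031232), the co-receptor for Sema3f that limits spine number on cortical neurons in mice, was at 2343, 2539 and 2387 in DMSO and at 2946, 3590 and 3223 after cLTP. The lowest stimulated value exceeded the highest control. The rise was 1.34-fold (log2 0.42, 95% interval 0.22 to 0.62, limma adjusted p = 0.0194). It lost its call without DMSO 1 (adjusted p = 0.0968) or cLTP 2 (0.0559) and when libraries were scaled to equal totals (0.0591) or quantile-normalised (0.0859). Nrp1 was at 2345, 1914 and 2323 and at 2187, 1955 and 2823, which overlapped (adjusted p = 0.847).

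None of the 9 plexin genes passed in limma with the deposited scaling and all 6 libraries, or in edgeR. Plxna1 passed in DESeq2 (adjusted p = 0.0388), and 2 were under 0.05 in limma before adjustment. The estimate was negative for 8 of the 9, and for all 9 when libraries were scaled to equal totals or quantile-normalised. Under those scalings limma called Plxna1 (adjusted p = 0.02 and 0.00991) and Plxna3 (0.0431 and 0.034) lower. Plxna4 was called lower without culture 3 of both groups (limma adjusted p = 0.0469). With the block, Plxna1, Plxna2, Plxna3 and Plxna4, the receptors used by neuropilins and by the Sema6 ligands, were all called lower. Plxna1 was at 2873, 2758 and 2868 in DMSO and 2426, 2318 and 2489 after cLTP, apart in all cultures (log2 -0.23, limma adjusted p = 0.0817, or 0.00106 with the block). Plxna3 was also apart, with 1406 to 1558 in DMSO and 1236 to 1338 after cLTP (0.163 and 0.00838). Plxna2 (0.347 and 0.00373) and Plxna4 (0.391 and 0.000555) overlapped between groups, with culture 3 the highest in each group. Plxnb2, the plexin with the highest mean count, was at 3808 ± 877 and 3551 ± 691 (adjusted p = 0.86).

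No gene of the netrin and Slit systems passed the test without a block. Of the 5 netrin receptor genes 0 passed in limma, edgeR or DESeq2, while Unc5c and Dcc were under 0.05 in limma before adjustment. Unc5c, a receptor through which netrin repels axons, was at 950, 964 and 1163 in DMSO and 683, 731 and 954 after cLTP. Each stimulated culture was below the control of the same number, while cLTP 3 lay within the range of the controls (log2 -0.39, limma adjusted p = 0.132, or 8.06e-05 with the block). Without cLTP 3 (adjusted p = 0.0233) and without culture 3 of both groups (0.00449) it passed. Dcc, the attractive receptor, was at 486, 485 and 627 in DMSO and 405, 369 and 496 after cLTP (0.21 without and 0.00143 with the block, and 0.0487 without culture 3). Unc5a, the netrin receptor with the highest mean count, was at 1189 ± 98.0 and 1061 ± 110 (0.398).

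The netrin genes Ntn1, Ntn3 and Ntn4, the netrin-G genes Ntng1 and Ntng2 and the Robo genes Robo1 and Robo2 passed in none of limma (0 at an unadjusted p under 0.05), the block fit, edgeR or DESeq2. Robo1, a Slit receptor, was at 1000, 992 and 1024 in DMSO and at 946, 983 and 1028 after cLTP. These values were nearly alike, and the 95% interval of its log2 difference ran from -0.19 to 0.13. Robo2 was at 1232 ± 110 and 1235 ± 124, with an interval from -0.22 to 0.23. Ntn4, the netrin with the highest mean count, was at 425 ± 71.9 and 468 ± 84.1 (adjusted p = 0.725). Slit3, the Slit with the highest mean count, was at 1470 ± 288 and 1405 ± 261 (adjusted p = 0.89). Slit2, the repellent for which these receptors are best known, was at 1054, 990 and 1173 and at 868, 877 and 1022, which overlapped (log2 -0.22, limma adjusted p = 0.237, or 0.00706 in the block fit). Of the 3 Slit genes, 0 passed in limma, edgeR or DESeq2, and Slit2 had an unadjusted p under 0.05 in limma.

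Across the 64 members the median log2 difference was -0.11, while that of all tested genes with a mean of at least 10 was 0.00. The estimate was negative for 44 members (68.8%), against 49.7% of those genes. Among the 28 receptors it was negative for 23, and among the 34 ligands for 21. Most differences were small, and 47 of the 64 were under 1.2-fold. Scaling to equal totals moved the median of all genes by -0.11 and left the members' median 0.12 below it, as with the deposited scaling. That gap rested in part on single libraries: the members' median minus that of all genes was -0.12 with all 6 libraries, -0.04 without DMSO 3, -0.07 without cLTP 1 and -0.17 without cLTP 3. With culture 3 of both groups left out, the gap was -0.10, and the estimate was negative for 49 members, against 50.0% of all genes. In 13 members (20.3%) the groups did not overlap, against 31.1% of the genes with a mean of at least 10; besides the 8 called these were Sema6a, Plxna1, Plxna3, Efna2 and Efna4.

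Same-numbered libraries deviated together, most strongly those of number 3, so a fit that blocks on culture number bears on the count of calls. The labels do not state this pairing. Within number 1 and number 2 the correlations were 0.22 and 0.30, and across them 0.19 and 0.16. Numbers 1 and 2 were thus only weakly told apart, and the counts that follow rest on an assumed pairing. With the block, 22 members passed (34.4%), 6 higher and 16 lower, against 23.5% of all tested genes and 27.9% of the genes with a mean of at least 10 (15.1% higher and 12.8% lower). All 8 members called without the block were among the 22. The 14 added were Sema6a and Sema6d, both higher, and Sema4a, Sema5a, Sema6c, the 4 Plxna genes, Epha4, Epha7, Dcc, Unc5c and Slit2, all lower; they are named here because their call differs between the fits. Their estimates were small, from 0.17 to 0.49 in size on the log2 scale. Within each culture number, 30 members (46.9%) were lower after cLTP in all 3 cultures and 10 (15.6%) were higher in all 3, against 27.8% and 29.7% of the genes with a mean of at least 10.

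**Figure D3:**
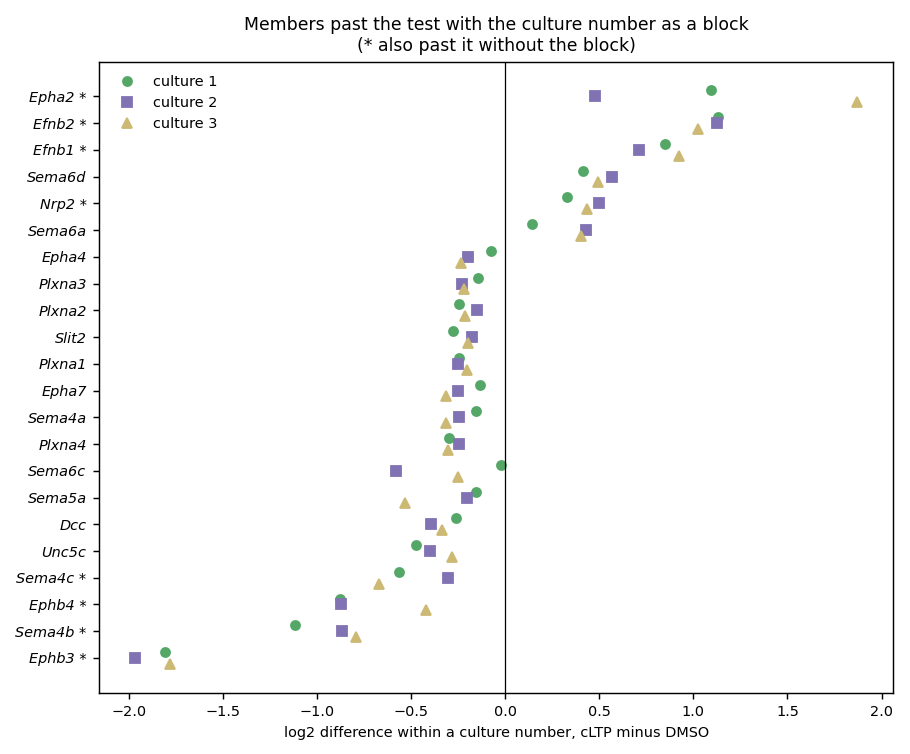
The log2 difference within each culture number, cLTP minus DMSO, for the 22 members past the test with the culture number as a block; each point is 1 culture number and an asterisk marks the 8 that also passed without the block. The 3 points of each gene lie on the same side of 0, and those of Sema6c and Epha2 are spread the most.

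The cultures differed among themselves in ways that touched several members. Culture 3 was above the mean of cultures 1 and 2 in both groups for 41 members (64.1%) and below it in both for 14 (21.9%), against 34.8% and 38.2% of the genes with a mean of at least 10. Plxnb3, a plexin known from oligodendrocytes, was the 1 member that differed by more than 2-fold in both groups, at 42.8, 28.1 and 15.8 in DMSO and 32.7, 31.1 and 11.2 after cLTP. Sema5b, Ephb1 and Plxnb2 were also lower in culture 3 of both groups, at 0.617-fold and 0.679-fold, 0.675-fold and 0.677-fold, and 0.648-fold and 0.771-fold in DMSO and cLTP. Sema5a was higher there, at 1.74-fold and 1.37-fold. Of the 8 called members, Epha2 and Ephb4 had culture 3 as the lowest value in DMSO and the highest after cLTP.

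**Figure D4:**
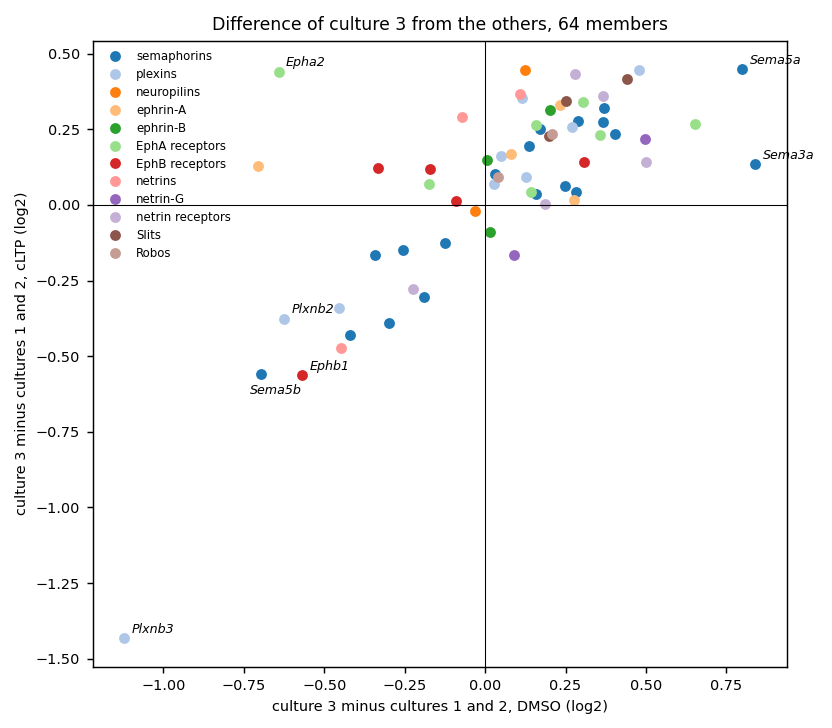
The log2 difference of culture 3 from the mean of cultures 1 and 2 in DMSO (horizontal axis) and after cLTP (vertical axis) for the 64 members, coloured by family. Plxnb3 stands apart at the lower left, and most members lie in the upper right corner.

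Markers of astrocytes, microglia and the oligodendrocyte lineage differed between culture numbers. In bulk samples fewer cells of a type and less RNA per cell cannot be told apart. The summed level of 8 astrocyte markers was 122478 and 141801 in culture 3 of DMSO and cLTP and 186608 to 198876 in the other 4 libraries. The 8 microglial markers found summed to 694 and 710 in culture 3 and to 3.38 to 18.1 elsewhere, and Aif1 was at 0 in the other 4 libraries. The 9 oligodendrocyte lineage markers summed to 2460 and 2803 in culture 3 and 3570 to 3844 elsewhere. Between cLTP and DMSO, 0 genes of these 3 lists passed in limma, edgeR or DESeq2 and 1, Mog, had an unadjusted limma p under 0.05, with all stimulated values below all controls at a mean of 3.72. With the block 3 astrocyte markers and Olig2 were higher and 1 astrocyte marker was lower. The part of these cells in the members' values was not tested. Of the 6 mural cell markers 1 passed, Pdgfrb, which fell from 329 ± 56.2 to 94.2 ± 24.7. The other 5 summed to 521 to 660 in DMSO and 523 to 561 after cLTP, which overlapped. Most of that sum was Notch3 (459 to 590 over the 6 libraries). Rgs5, Acta2 and Kcnj8 were near the floor, with means of 3.06, 1.57 and 5.68. Neuronal markers were present in all libraries. The 6 pan-neuronal genes summed to 53283 and 60369 in culture 3 of DMSO and cLTP and to 42173 to 48861 in the other 4 libraries. The 6 inhibitory markers were also highest in culture 3 of each group (16089 and 20353). The 6 excitatory markers were instead highest in culture 1 of each group (18919 and 20182). The part of neurons in the members' values was not tested either. Of 18 neuronal markers, Nefl, Slc17a6 and Dlx2 passed the test and were higher, and 15 did not pass. With the block 9 were higher and 1, Neurod6, was lower (log2 -0.50, limma adjusted p = 0.112 without and 2.94e-05 with the block).

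The molecules that work with these ligands and receptors were described through a list of 73 co-receptors, adhesion partners and cytoplasmic effectors, of which 72 were found. In limma 4 rose and 2 fell, 6 of 72, which is read against 9.02% of all tested genes and 10.7% of those with a mean of at least 10. The 3 largest increases were in leucine-rich repeat proteins of the cell surface. Flrt3, which binds Unc5 receptors and latrophilins, was at 351, 450 and 542 in DMSO and at 1243, 1000 and 1227 after cLTP. The lowest stimulated value was far above the highest control (2.61-fold, log2 1.38, 95% interval 1.02 to 1.74, limma adjusted p = 0.000924). Its relative Flrt2 rose from 269 ± 26.3 to 422 ± 42.6 (1.57-fold, adjusted p = 0.00724). For Flrt1 the means were 343 in DMSO and 275 after cLTP (0.104, and 0.00675 in the block fit).

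Lrrc4, a postsynaptic adhesion protein that binds netrin-G2, was at 1126, 1065 and 1049 in DMSO and at 2001, 2209 and 2536 after cLTP. All stimulated cultures were well above a narrow range of controls (2.07-fold, log2 1.05, 95% interval 0.84 to 1.27, limma adjusted p = 0.000171). The gene of its ligand, Ntng2, was at 651, 580 and 655 and at 657, 529 and 529, which overlapped (adjusted p = 0.519).

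Of the cytoplasmic effectors, 1 rose and 2 fell. Arhgef12, a cytoplasmic protein that binds B-type plexins, was at 2563, 2579 and 2093 in DMSO and 3363, 3892 and 2903 after cLTP (1.40-fold, limma adjusted p = 0.0434). Rnd1, a small GTPase that binds plexins, fell from 224 ± 16.5 to 158 ± 13.4 (0.707-fold, adjusted p = 0.0245), and Tiam1, a Rac exchange factor that acts downstream of EphB receptors, from 549 ± 97.2 to 383 ± 36.3 (0.703-fold, adjusted p = 0.0442). Arhgef12 lost its call without any 1 library except cLTP 3 (0.0799 to 0.147). Rnd1 lost it when DMSO 1, DMSO 2, cLTP 2 or cLTP 3 was left out (0.0698 to 0.113). Tiam1 lost it when DMSO 1, DMSO 3, cLTP 1 or cLTP 2 was left out (0.0741 to 0.171). Arhgef12 also did not pass when libraries were scaled to equal totals (0.0689) or quantile-normalised (0.15). With the block 11 of the list were higher and 13 lower (33.3%), against 23.5% of all tested genes (12.9% higher and 10.7% lower). Of the genes with a mean of at least 10 it was 27.9% (15.1% higher and 12.8% lower).

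**Figure D5:**
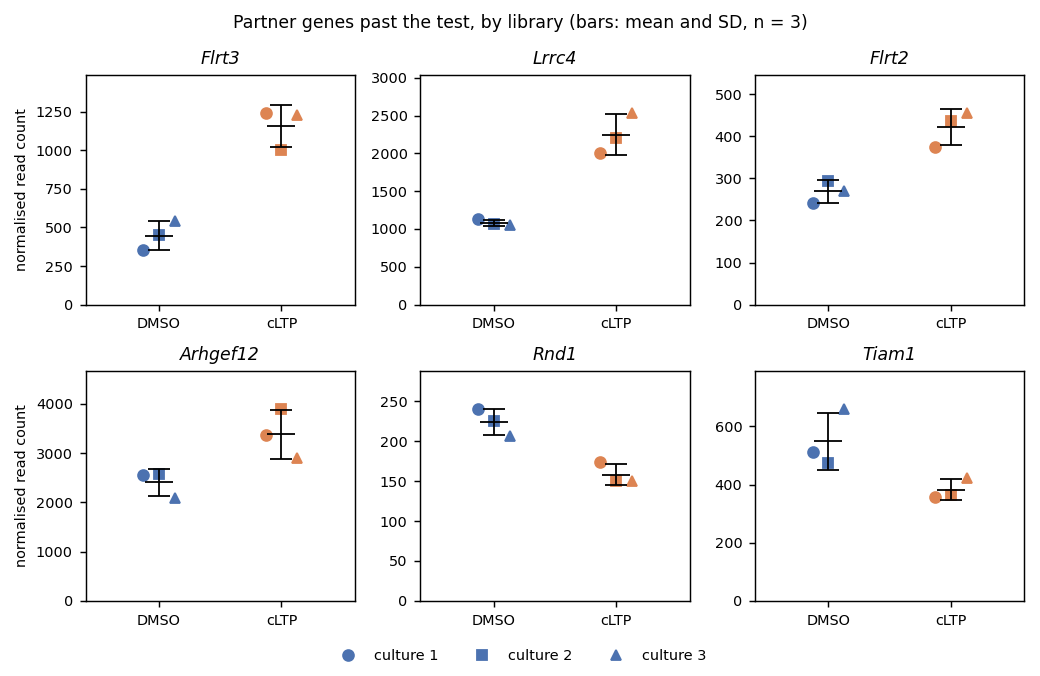
Normalised read counts of the 6 partner genes past the test in each library, in order of their log2 difference; points are libraries with a shape for each culture number, and bars give the mean and SD of 3 libraries. The groups do not overlap in any of the 6, which were picked by the test. Of all tested genes 28.2% do not overlap. Flrt3 and Lrrc4 show the largest increases.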

How the data were processed

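Strand-specific libraries of polyadenylated RNA were made from 3 DMSO and 3 cLTP cultures, per the labels' protocols. A passage there about FACS-sorted cells from operated animals contradicts the source of these cultures and was disregarded. The submitters' processing notes name bcl2fastq, STAR, DESeq2 and build rn6; which tool counted the reads, with what annotation and strand option, is not given in the sources, so reads of overlapping genes may be shared. The deposited values are a signal per gene, each library's read counts over its size factor. Dividing by the smallest step of a library returned whole reads (tolerance 0.01) for 100% of the nonzero entries, and 10668973 to 12776185 reads per library. Levels are not divided by gene length, so a higher count of one gene than of another does not show a higher level. A value of 2.63 to 3.38 corresponds to 3 reads. The labels call the cultures biological replicates without naming separate litters or days, so the p-values speak for the variation among these 6 cultures alone. Replicates varied beyond sampling noise (chi-square divided by its degrees of freedom 3.84 to 18.8).

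R 4.3.3 with limma 3.58.1 (eBayes with trend and robust, log2(value + 1), two-sided, Benjamini-Hochberg over all 17315 genes with a mean of at least 1, threshold 0.05) compared the groups without a block. edgeR 4.0.16 and DESeq2 1.42.0 on the recovered reads, other scalings, pseudocounts, filters and left-out libraries were alternatives. Same-numbered libraries correlated in their deviations from the group means (0.22, 0.30 and 0.54, each above 0.1), so the culture number was also used as a block; the pairing rests on this check. DMSO 2 with cLTP 1 (0.16) and DMSO 1 with cLTP 2 (0.19) were also above 0.1, so the check mainly sets culture 3 apart from the others. The members and lists were chosen with earlier results of these data known. Named are the members past the threshold, the highest and, in families without a call, the lowest-p member of each family, and called partners. Others were named after their values were seen. Scripts were tested on simulated data. Ablim1, Itgam and Pecam1 were not analysed here.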

Additional observations from a re-analysis of the deposited data

How the results depend on the processing

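Over 39 genes and 18 alternatives, 611 of 702 gene results kept their side of the threshold, 49 lost and 42 gained a call, and no called value changed sign. Among the 611, 25 results of 6 genes, not called in limma or under that alternative, changed sign (Efnb3, Ephb1, Ntn4, Plxnb2, Robo2 and Slit3). Efnb1, Efnb2, Ephb3, Flrt2, Flrt3 and Lrrc4 passed under all 18. Of the members, 4 higher and 4 lower were called in limma. Without trend and robust variance moderation 2 were higher and 2 lower, with 3 partners higher and 0 lower (6 lower at an unadjusted p under 0.05 in limma; edgeR and DESeq2 each called 2 lower in their own fits) and 973 genes called in all, against 1561. Sema4b (adjusted p = 0.0841), Sema4c (0.0842), Nrp2 (0.0849) and Epha2 (0.0681) were the members lost there. With the replicate block, 6 members were higher and 16 lower, 11 partners higher and 13 lower, and 4075 genes were called; with the block and equal totals the counts were 6 and 33, 7 and 24, and 5409. Equal totals alone gave 3 higher and 6 lower members and 8 lower partners (823 higher and 1322 lower genes), and quantile normalization 3 and 6 members and 7 lower partners (897 higher and 799 lower genes), against 988 and 573. Without culture 3 of both groups 3 members were higher and 5 lower, and 5 partners were lower. Leaving out 1 library gave 2 to 4 higher and 1 to 3 lower members, 3 to 5 higher and 0 to 3 lower partners and 953 to 1408 genes in all. The lowest count of lower members, 1, came without DMSO 1, DMSO 2 or cLTP 1, and 0 lower partners without DMSO 1 or cLTP 2 (6 at an unadjusted p under 0.05 in limma in each). Members with a mean of at least 100 held 3 higher and 3 lower calls. The causes of these shifts were not tested. At 10 to 38 reads Epha2, and at 8 to 28 reads Efna4, were measured with low precision.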
